A study of Mus musculus with 12 samples.

Results

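Cells labelled as knockouts of both Rb1 and Kdm5a were compared with wild-type cells in 2 kinds of material, mixed cultures and purified myotubes. The 2 differences were set against each other gene by gene. The measure is a difference of differences on log2(value + 1): double knockout (DKO) minus wild type (WT) in purified myotubes, less DKO minus WT in mixed cultures. A positive value means a DKO effect that is higher in purified myotubes. A shift between the 2 library types that both genotypes share cancels while a gene stays well above 0 reads. It does not cancel where both genotypes lose nearly all reads in purified samples. The difference is then close to the DKO effect in mixed cultures with its sign reversed, as for Iigp1 (5.77 in mixed cultures, difference -5.77). Every gene averaging 10 or more normalised reads over the 8 libraries was taken, 17261 of the 36229 in the files. Normalised reads are read counts scaled by the depth of the library. The genes were not chosen by how they changed.

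The cells were C57BL/6 mouse embryonic fibroblasts, WT or with both Kdm5a and Rb1 knocked out. All received Adeno-MyoD, an adenovirus that expresses MyoD, for 24 h in differentiation medium (10 µg/ml insulin, 2% horse serum) and then fresh medium of that kind for another 72 h. Mixed cultures (n = 2 libraries per genotype) hold myotubes and unfused cells together; ribosomal RNA was removed from 1.7 µg of RNA, and single reads were 40 bases long. For purified samples (n = 2 per genotype), cells were detached, separated by size and left 24 h in medium conditioned for 48 h on other fibroblasts; 1.5 µg of RNA went through 2 rounds of oligo(dT) selection, 15 PCR cycles and reads of 36 bases. Purification, RNA selection and sequencing therefore changed together, and their shares of any difference cannot be told apart. Neither the origin of the 2 libraries of a group in separate cultures nor the part of either gene that was removed is given in the labels, so p-values measure the spread between these libraries, which may be technical. In such bulk samples, fewer cells of a type and less RNA per cell cannot be told apart.

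MyoD is a basic helix-loop-helix factor that binds E-box sites and can turn fibroblasts into muscle. The retinoblastoma protein RB holds E2F factors in check, so that genes for DNA replication are shut off when a muscle cell leaves the cell cycle. KDM5A, a lysine demethylase that removes methyl groups from histone H3 lysine 4, was found as a protein that binds RB. Fused myotubes switch on contractile proteins, calcium handling and the enzymes that supply ATP.

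Library depth was 8688604 to 41309134 recovered reads. The 2 DKO purified libraries stood apart from each other: the median absolute log2 difference between replicates was 0.508 there, against 0.106 to 0.185 in the other groups. Xist read 0 to 2.48 in WT libraries and 6809.7 to 9881 in DKO libraries, and the Y-linked gene Uty had reads in WT only, so that the genotype difference is also one between female and male cells in both materials. Summed over 20 myotube markers, normalised reads were 297153.4 and 312194.3 in WT mixed, 76338.8 and 77083.7 in DKO mixed, 815914.3 and 841770.4 in WT purified and 189921.9 and 190145.7 in DKO purified. Over 20 fibroblast matrix markers they were 18011.5 and 18521.9 in WT mixed, 22904.3 and 24164.6 in DKO mixed, 27785.8 and 32135.3 in WT purified and 32529.5 and 42544.0 in DKO purified, so both lists were measured in both materials and purified samples were not free of matrix messengers. Other markers were lower: 3 adipocyte markers summed to at most 12.6 normalised reads in any library, 4 epithelial markers to at most 74.2, 4 endothelial markers to at most 231.5 and 5 blood markers to at most 1048.6, with Hba-a1 at 0 throughout. The 4 neural markers, Map2 among them, summed to 2135.1 and 2593.9 in WT mixed, 7546.9 and 8293.6 in DKO mixed, 366.5 and 402.5 in WT purified and 2829.6 and 3615.1 in DKO purified. Of the myotube markers 2 of 20 were called higher and 7 lower for the difference, and of the fibroblast markers 1 of 20 higher and 9 lower. Among all genes, 7.73% were called higher and 8.99% lower. What these cell-type levels contribute to the results was not tested.

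Both targeted genes were read first. Kdm5a, which shares exons with Ccdc77, read 1637 and 1871 in WT mixed, 1319 and 1369.7 in DKO mixed, 3033 and 2775 in WT purified and 787 and 614 in DKO purified. DKO libraries were lower than WT libraries in both materials without overlap, by -0.38 ± 0.08 (log2 change ± SE) in mixed cultures and -2.06 ± 0.20 in purified myotubes, a difference of -1.68 ± 0.22, adjusted p = 0.0039. Rb1, which shares exons with Lpar6 and Rcbtb2, read 5616 and 5649.5 in WT mixed, 5309 and 5662 in DKO mixed, 3499.5 and 3218 in WT purified and 2356 and 2104 in DKO purified. Its mixed libraries overlapped between genotypes and its purified libraries did not, and the difference did not pass the test (-0.55 ± 0.17, adjusted p = 0.0642). Whole-gene reads include parts that a deletion may leave in place, so they do not check the label. The related demethylase Kdm5b, which acts on the same mark, read 1878 and 2113 in WT mixed, 835 and 837 in DKO mixed, 2028 and 2042 in WT purified and 351 and 302 in DKO purified. It fell in both materials and further in purified myotubes (-1.39 ± 0.19, adjusted p = 0.00479), whereas the X-linked paralog Kdm5c did not pass (0.37 ± 0.20, adjusted p = 0.257). In the list of KDM5 enzymes, pocket proteins and E2F factors, 3 of 31 genes were called higher and 4 lower; among all genes, 7.73% were called higher and 8.99% lower.

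The DKO effect differed between the materials for 2886 of 17261 genes (16.7%), with 1335 (7.73%) higher and 1551 (8.99%) lower in purified myotubes (limma, Benjamini-Hochberg adjusted p under 0.05). Of these, 2379 differed by at least 1 log2 unit. DKO against WT by itself called 11634 genes (67.4%) in mixed cultures, 5797 higher (33.6%) and 5837 lower (33.8%). In purified myotubes it called 6220 (36%), 3332 higher (19.3%) and 2888 lower (16.7%). Counts within the lists are to be read beside these shares. Fewer calls in purified myotubes do not by themselves mean smaller effects, since the median SE was 0.149 in mixed cultures and 0.327 there. Of 32 proteasome subunits, 27 fell in mixed cultures and 7 in purified myotubes, with medians of -0.803 and -0.807. The count depends on single libraries, also through the spread, which all groups share in the fit. A group left with 1 library adds nothing to that spread. Fits without a DKO purified library therefore lack the widest pair (median 0.508), and the other omissions give that pair more weight. Ranges given below for lists mix both kinds of fit, and lost calls are to be read with this limit. Leaving out one WT mixed, DKO mixed or WT purified library gave 608 to 1327 genes, 608 of them without DKO mixed replicate 1, 678 without DKO mixed replicate 2, 909 without WT purified replicate 1, 1089 without WT purified replicate 2, 1101 without WT mixed replicate 1 and 1327 without WT mixed replicate 2. Leaving out DKO purified replicate 1 gave 8957 and DKO purified replicate 2 gave 6521. In purified myotubes alone, the calls named below need both WT purified libraries in the fit. Without 1 of them the spread comes from the DKO purified pair only. The loss of calls therefore does not show that the WT purified libraries disagreed.

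**Figure D1:**
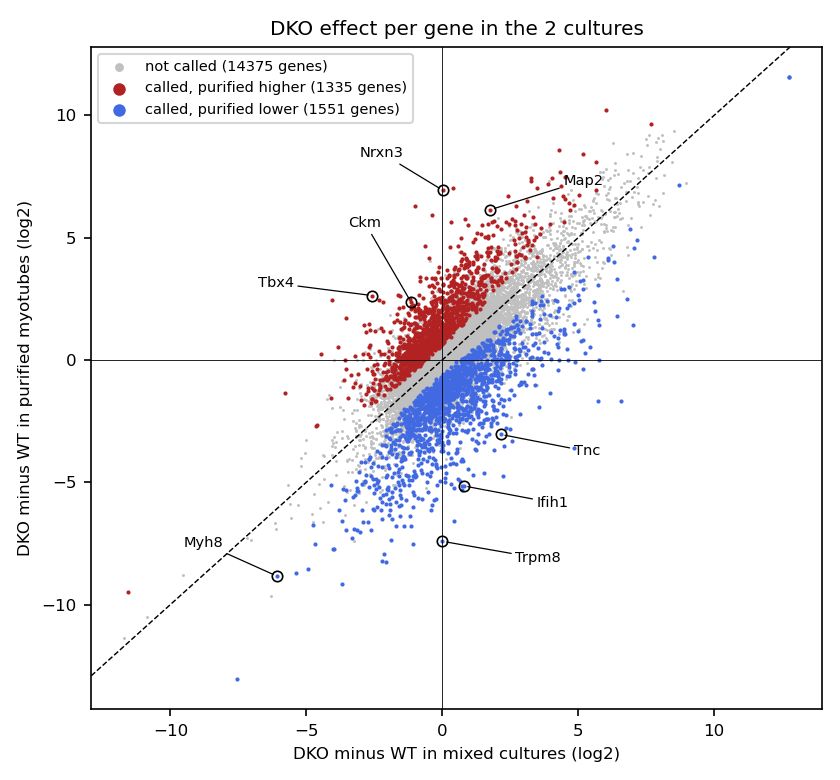
DKO minus WT on the log2 scale in mixed cultures (horizontal axis) and in purified myotubes (vertical axis), 1 point per gene, 17261 genes. Red and blue points are the 1335 genes called higher and the 1551 called lower for the difference, grey points were not called, and the dashed line marks equal effects; ringed genes are named and stand away from it.

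Genes called for the difference fell into a few patterns. Among the 1335 higher genes, 524 (39.3%) fell in mixed cultures and were not called in purified myotubes, with median changes of -0.99 and 0.28. Another 361 (27.0%) rose in both and further in purified myotubes (medians 1.17 and 3.03), 258 (19.3%) were called only in purified myotubes, where they rose, and 48 fell in both but less in purified myotubes. Among the 1551 lower genes, 462 (29.8%) rose in mixed cultures and were not called in purified myotubes, 459 (29.6%) fell in both and further in purified myotubes (medians -1.09 and -2.69), 354 (22.8%) fell and were called only there, and 85 rose in both but less there. In opposite directions, 126 genes (0.73% of all tested) fell in mixed cultures and rose in purified myotubes, and 169 (0.979%) did the reverse. The remaining 18 higher and 22 lower genes were called in neither material by itself. Of all called genes 47 had group means under 10 in both purified groups, as did 568 genes (3.3%) of all tested. A further 48 called genes had group means under 10 in both mixed groups. For these genes the term of that material rests on few reads.

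**Figure D2:**
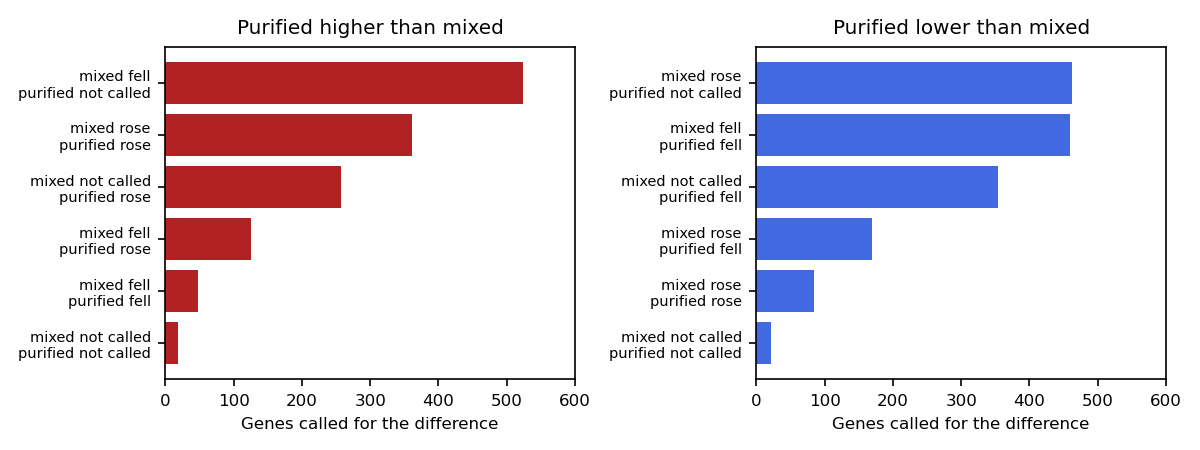
Number of genes (horizontal axes) called for the difference by their calls in each material, for the 1335 genes with a higher DKO effect in purified myotubes (left) and the 1551 with a lower one (right). The longest bars are 524 genes that fell in mixed cultures and were not called in purified myotubes, and 462 that rose in mixed cultures and were not called there.

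Creatine kinase, muscle type, the enzyme that buffers ATP in contracting muscle, had its order of genotypes turned over between the materials. Ckm, which shares exons with A930016O22Rik, read 2827 and 2456 in WT mixed, 1213 and 1167 in DKO mixed, 463 and 432 in WT purified and 2306 and 2298 in DKO purified. WT libraries were above DKO libraries in mixed cultures and below them in purified myotubes, with no overlap in either. The change was -1.15 ± 0.08 in mixed cultures and 2.36 ± 0.16 in purified myotubes, a difference of 3.51 ± 0.18, adjusted p = 0.000375. Glycogen phosphorylase of muscle, Pygm, which releases sugar from glycogen, read 8392 and 8414 in WT mixed, 2946 and 2878 in DKO mixed, 4817 and 4686 in WT purified and 4866 and 5362 in DKO purified. It fell in mixed cultures and was not called in purified myotubes (0.10 ± 0.17; difference 1.63 ± 0.16, adjusted p = 0.00156). Eno3, the muscle enolase, showed the same order of groups in mixed cultures (-1.07 ± 0.05) and a purified change of 0.10 ± 0.18. Of 29 muscle energy genes, 26 fell in mixed cultures and 9 in purified myotubes, with median changes of -1.12 and -0.35. The difference was called higher for 12 (41.4%, against 7.73% of all genes) and lower for 2, with a median of 0.60 against -0.06 over all genes; leaving out single libraries gave 6 to 16 higher and 1 to 5 lower. Against this direction, Ppp1r3c, a regulatory subunit that directs phosphatase to glycogen, read 601 and 757 in WT mixed, 215 and 232 in DKO mixed, 4642 and 4279.8 in WT purified and 229 and 121 in DKO purified, and fell further in purified myotubes (-3.14 ± 0.40, adjusted p = 0.00347).

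Promoters of these genes are shown because MyoD binds E-box sites. The letters CAGCTG, one form of the E-box CANNTG that reads the same on both strands, were searched in RefSeq windows (GRCm38.p6) from 250 bases before to 50 after a start. For each motif, a gene counted if any of its windows held the letters. The 27025 genes are all that have a window, tested here or not. CAGCTG was in a window of 16 of the 24 muscle energy genes that have one, against 18.3% of 27025 genes, and in 10 of 57 genes for DNA replication. A match is a description of letters, not a bound site. The 2 members with the smallest p among those that hold the letters are printed 5′ to 3′, with CAGCTG in capitals.
Ckm (chr7:19410844-19411143, plus strand): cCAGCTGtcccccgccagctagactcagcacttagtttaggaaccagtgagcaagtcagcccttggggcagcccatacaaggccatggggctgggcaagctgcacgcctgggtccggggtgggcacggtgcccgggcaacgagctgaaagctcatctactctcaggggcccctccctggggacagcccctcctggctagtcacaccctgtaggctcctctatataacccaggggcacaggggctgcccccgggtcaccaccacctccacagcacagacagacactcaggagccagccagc
Pygm (chr19:6384158-6384457, plus strand): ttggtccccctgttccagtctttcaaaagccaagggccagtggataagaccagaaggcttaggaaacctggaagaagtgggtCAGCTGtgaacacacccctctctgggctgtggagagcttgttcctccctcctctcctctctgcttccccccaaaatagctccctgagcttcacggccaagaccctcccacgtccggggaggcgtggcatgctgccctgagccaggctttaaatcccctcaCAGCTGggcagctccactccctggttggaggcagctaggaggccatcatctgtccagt

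Glycolytic enzymes shared the pattern, and at least Eno3 is counted in both lists. Of 22 genes, 17 fell in mixed cultures (median -1.09) and 7 in purified myotubes (median -0.22). Shares called for the difference were 50% higher and 9.09% lower, against 7.73% and 8.99% of all genes. For the difference, 11 were called higher and 2 lower, with no call for 9, with a median of 0.84; leaving out single libraries gave 4 to 14 higher and 0 to 3 lower. Pyruvate kinase Pkm, the last step of the pathway, shares exons with Gm49759 and read 7237 and 6504 in WT mixed, 2729 and 2954 in DKO mixed, 3339.5 and 3454 in WT purified and 4127 and 5469.9 in DKO purified. Its mixed groups were far apart and the purified groups near each other, a difference of 1.76 ± 0.22, adjusted p = 0.00332. Aldolase Aldoa, which splits the 6-carbon sugar and shares exons with Fam57b, differed by 1.82 ± 0.27, adjusted p = 0.00606, from -1.98 ± 0.06 in mixed cultures to -0.15 ± 0.26. Hexokinase Hk1, which shares exons with Hk1os, read 1214 and 1209.9 in WT mixed, 799 and 907 in DKO mixed, 2429.7 and 2301 in WT purified and 4417 and 5184 in DKO purified, lower in DKO than in WT mixed cultures and higher in DKO than in WT purified myotubes (1.53 ± 0.19, adjusted p = 0.00317). The 2 lower genes were Hk2, another hexokinase, and Pfkfb3, which makes an activator of phosphofructokinase.

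Mitochondrial genes moved less. Of 79 nuclear-encoded subunits of oxidative phosphorylation, 58 fell in mixed cultures (median -0.75) and 8 in purified myotubes (median -0.40). Shares called for the difference were 17.7% higher and 0% lower, against 7.73% and 8.99% of all genes. The difference was called higher for 14 and lower for 0, with 65 not called and a median of 0.35; leaving out single libraries gave 2 to 49 higher and 0 to 19 lower. Uqcrc1, a core protein of complex III, read 3979 and 4090.0 in WT mixed, 1754 and 1763 in DKO mixed, 3362 and 3435 in WT purified and 3241 and 3771 in DKO purified. DKO fell by more than the spread between replicates in mixed cultures, the purified groups overlapped, and the difference was 1.24 ± 0.17, adjusted p = 0.00466. The heart and muscle isoform Cox8b of complex IV read 369.7 and 330.4 in WT mixed, 306 and 262 in DKO mixed, 162 and 150.3 in WT purified and 499 and 774 in DKO purified, with no call in mixed cultures (-0.30 ± 0.13) and higher DKO values in purified myotubes (2.29 ± 0.33, adjusted p = 0.00546). Sdhd, called higher, is counted both among these subunits and in the tricarboxylic acid cycle. In that cycle 3 of 25 genes were called higher and 0 lower, and among mitochondrial ribosomal proteins 7 of 77 and 0. The latter share is near the 7.73% of all genes called higher. For these 2 lists, leaving out single libraries gave 0 to 19 higher and 0 to 5 lower, and 0 to 27 higher and 0 to 16 lower. Esrrg, a nuclear receptor of oxidative metabolism, read 191 and 183 in WT mixed, 841 and 839.9 in DKO mixed, 5.58 and 4.97 in WT purified and 226 and 296 in DKO purified, rising in both materials and further in purified myotubes (3.21 ± 0.31, adjusted p = 0.00156). The coactivator Ppargc1a, which drives mitochondrial biogenesis, also rose in both materials, but its difference did not pass (0.997 ± 0.48, adjusted p = 0.193).

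Messengers encoded by the mitochondrial genome went the other way, with 42.9% called lower against 8.99% of all genes. Of 7 tested, 3 were called lower and 0 higher (median -0.94), and single-library omissions gave 0 to 1 higher and 0 to 6 lower. Nd2 of complex I, mt-Nd2, which shares exons with mt-Tw, read 4744 and 4649 in WT mixed, 5304 and 5096 in DKO mixed, 21522 and 19419 in WT purified and 10048 and 7365 in DKO purified. DKO was above WT in mixed cultures and below it in purified myotubes, a difference of -1.40 ± 0.23, adjusted p = 0.00863 that was not called without DKO mixed replicate 1, DKO mixed replicate 2 or WT purified replicate 1 (adjusted p up to 0.061). These messengers carry short poly(A) tails, and selection for tails cannot be told apart from purification in these samples.

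Cholesterol synthesis had 0 genes called lower. Of 23 genes, 20 fell in mixed cultures (median -1.26) and 8 in purified myotubes (median -0.45). Over all genes, 7.73% were called higher for the difference and 8.99% lower. Its difference was called higher for 11 (47.8%, median 0.84), and 1 to 16 higher and 0 to 1 lower when single libraries were left out. Among them were Mvk, Mvd, Fdps, Fdft1, Lss, Nsdhl, Hsd17b7 and Sc5d of the pathway and Insig1, which restrains the SREBP factors that drive these genes. All 11 calls were lost in at least 1 omission. Mvd, mevalonate decarboxylase, read 799 and 879 in WT mixed, 125 and 126 in DKO mixed, 752 and 927 in WT purified and 307 and 382 in DKO purified. DKO was below WT without overlap in both materials and by more in mixed cultures, a difference of 1.45 ± 0.26, adjusted p = 0.011; it was lost without WT mixed replicate 2, DKO mixed replicate 1, DKO mixed replicate 2 or WT purified replicate 1 (adjusted p up to 0.0675). Insig1, a gene outside the naming rule given with its promoter, changed by -2.40 ± 0.07 in mixed cultures, and its purified groups overlapped (2.06 ± 0.38, adjusted p = 0.0128; lost without WT mixed replicate 1, WT mixed replicate 2, DKO mixed replicate 1, DKO mixed replicate 2 or WT purified replicate 1 (adjusted p up to 0.071)).

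The letters CCAAT, bound by the factor NF-Y, were searched on both strands. They were in a window of 16 of the 17 cholesterol genes that have one, against 41.1% of 27025 genes. They were also in 36 of 57 genes for DNA replication, 15 of 35 interferon-stimulated genes and 11 of 24 muscle energy genes. The 2 members with the smallest p among those that hold the letters are printed, with CCAAT or its complement ATTGG in capitals.
Mvd (chr8:122443373-122443672, minus strand): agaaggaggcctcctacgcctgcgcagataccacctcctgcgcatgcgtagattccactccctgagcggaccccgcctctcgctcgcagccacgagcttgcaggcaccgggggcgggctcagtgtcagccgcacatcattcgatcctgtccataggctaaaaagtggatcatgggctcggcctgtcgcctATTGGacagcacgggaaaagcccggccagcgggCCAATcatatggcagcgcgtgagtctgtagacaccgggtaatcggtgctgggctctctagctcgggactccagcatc
Insig1 (chr5:28071162-28071461, plus strand): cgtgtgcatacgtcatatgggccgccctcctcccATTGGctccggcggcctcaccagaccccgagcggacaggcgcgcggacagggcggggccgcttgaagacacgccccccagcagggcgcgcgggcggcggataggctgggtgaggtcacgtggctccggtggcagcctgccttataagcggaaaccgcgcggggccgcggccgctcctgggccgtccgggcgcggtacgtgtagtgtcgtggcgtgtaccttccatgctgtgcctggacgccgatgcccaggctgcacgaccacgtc

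**Figure D3:**
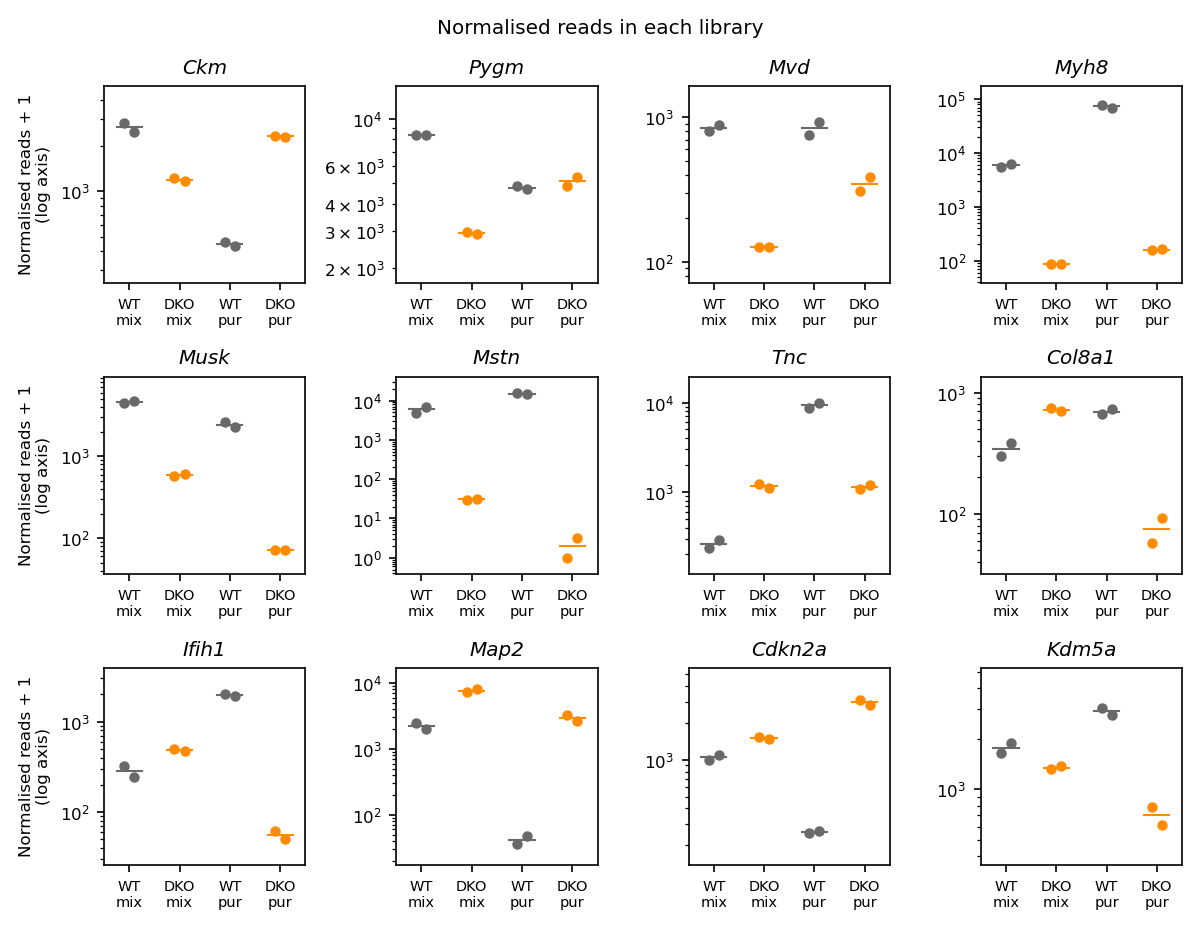
Normalised reads plus 1 (vertical axes, log scale, each with its own range) in each of the 8 libraries for 12 genes; points are libraries, lines are the mean of 2, grey is WT and orange is DKO. For Ckm the order of WT and DKO turns over between mixed cultures and purified myotubes, and for Tnc, Col8a1 and Ifih1 it turns over the other way.

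Contractile genes divided. Embryonic myosin Myh3, the main heavy chain of these cells, read 77084 and 76911 in WT mixed, 20397 and 21204 in DKO mixed, 163792 and 154839 in WT purified and 48862 and 34513 in DKO purified. DKO was lower without overlap in both materials, by -1.89 ± 0.04 and -1.96 ± 0.38, and the difference did not pass (-0.07 ± 0.25, adjusted p = 0.88). Of 51 genes of the sarcomere, 40 fell in mixed cultures and 23 in purified myotubes, with medians of -1.19 and -0.99. Shares called for the difference were 15.7% higher and 21.6% lower, against 7.73% and 8.99% of all genes. The difference was called higher for 8 (Myh1, Actn3, Tpm1, Tpm2, Myom1, Myom2, Myom3 and Tmod1) and lower for 11 (Myh4, Myh6, Myh7, Myh8, Myl4, Actc1, Actn2, Ttn, Neb, Myoz2 and Xirp2); leaving out single libraries gave 2 to 21 higher and 1 to 18 lower. Of these 19 calls, 16 were lost in at least 1 omission. Perinatal myosin Myh8 read 5433 and 6317 in WT mixed, 85.2 and 85.7 in DKO mixed, 78148 and 69138 in WT purified and 156 and 163 in DKO purified, with WT far above DKO in both materials and a larger fall in purified myotubes (-2.76 ± 0.19, adjusted p = 0.000612). Adult fast myosin Myh1, which shares exons with Myhas, read 13805 and 13381 in WT mixed, 559 and 568 in DKO mixed, 6683 and 5974 in WT purified and 1190.4 and 829.8 in DKO purified, and its fall was smaller in purified myotubes (1.92 ± 0.25, adjusted p = 0.00361). Myom2, a protein of the M-band, read 4589.6 and 4391 in WT mixed, 4612 and 4679.5 in DKO mixed, 2562 and 2599 in WT purified and 5775 and 6688 in DKO purified, close together in mixed cultures (0.05 ± 0.05) and higher in DKO purified myotubes (1.22 ± 0.17, adjusted p = 0.00482).

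Regulators, fusion genes and the triad divided as well. Of regulators and fusion genes 23.3% were called higher and 13.3% lower, against 7.73% and 8.99% of all genes. For excitation-contraction coupling and the neuromuscular junction the shares were 27% and 16.2%. Myog, the factor of terminal differentiation, read 16127 and 18252 in WT mixed, 13309 and 12735 in DKO mixed, 35029 and 30136 in WT purified and 18646 and 23213 in DKO purified and its difference did not pass (-0.24 ± 0.22, adjusted p = 0.48). Reads of Myod1 may come from the cell or from the virus. Myod1 read 5852 and 6886 in WT mixed, 2502 and 2611 in DKO mixed, 12979 and 13074 in WT purified and 7443 and 21379 in DKO purified; the DKO purified libraries lay on either side of the WT ones, and the difference did not pass (1.27 ± 0.58, adjusted p = 0.177). Of 30 genes in the list, 7 were called higher and 4 lower, and 2 to 18 higher and 1 to 8 lower without single libraries. Mymx, the micropeptide that drives membrane fusion, read 779 and 738 in WT mixed, 2166 and 1994 in DKO mixed, 642 and 444 in WT purified and 5993 and 5384 in DKO purified. DKO was above WT in both materials, by 1.45 ± 0.07 and 3.41 ± 0.24, a difference of 1.96 ± 0.26, adjusted p = 0.00408. Myostatin Mstn, a secreted inhibitor of muscle growth, read 4785 and 7038 in WT mixed, 28.9 and 30.4 in DKO mixed, 15306 and 14435 in WT purified and 0 and 2.09 in DKO purified. It was near its floor in DKO purified myotubes, where WT was 11600-fold (95% exact counting interval 3210 to 95900) higher, and the difference was -5.48 ± 0.67, adjusted p = 0.00292.

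Among 37 genes of excitation-contraction coupling and the neuromuscular junction, 10 were called higher and 6 lower, and 0 to 18 higher and 2 to 13 lower without single libraries. Musk, the receptor kinase that organises the synapse, read 4442 and 4721 in WT mixed, 575 and 604 in DKO mixed, 2606 and 2259 in WT purified and 71.6 and 71.2 in DKO purified, falling in both materials and further in purified myotubes (-2.11 ± 0.19, adjusted p = 0.00145). The calcium pump Atp2a1, which shares exons with Rabep2, read 23361 and 21470.4 in WT mixed, 7773 and 9605 in DKO mixed, 28082 and 25361 in WT purified and 26104 and 32544 in DKO purified, falling in mixed cultures with overlapping purified groups (1.50 ± 0.23, adjusted p = 0.00732; lost without DKO mixed replicate 1 (adjusted p = 0.0549)). Sarcolipin Sln, a small inhibitor of that pump, read 267 and 244 in WT mixed, 1133 and 1138 in DKO mixed, 813 and 666 in WT purified and 924 and 1151 in DKO purified, rising in mixed cultures and not called in purified myotubes (-1.66 ± 0.24, adjusted p = 0.00549).

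Cell-cycle genes rose in both materials. Of 70 genes for DNA replication and G1/S, 70 rose in mixed cultures and 62 in purified myotubes, by medians of 3.30 and 3.09. Of 76 genes for G2/M and mitosis, 74 and 73 rose, by 5.16 and 5.70. For the difference, where 7.73% of all genes were called higher and 8.99% lower, calls were 6 higher and 4 lower among the first (median -0.14), and 9 and 2 among the second (median 0.35). A missed call does not show equal effects: the 95% interval of the difference lay within 1 log2 unit of 0 for 19 of 70 genes and 5 of 76. Single-library omissions gave 1 to 16 higher and 0 to 19 lower in the first list, and 3 to 19 higher and 0 to 12 lower in the second.

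The histone chaperone Asf1b, used behind the replication fork, read 677 and 553 in WT mixed, 5481 and 5392 in DKO mixed, 197 and 191 in WT purified and 5396 and 5499 in DKO purified, with a larger rise in purified myotubes (1.65 ± 0.19, adjusted p = 0.00247). Anillin Anln, a scaffold of the dividing cell's furrow, read 164 and 115 in WT mixed, 1579 and 1557 in DKO mixed, 18.6 and 28.6 in WT purified and 3625 and 2749 in DKO purified, and likewise rose further there (3.53 ± 0.38, adjusted p = 0.0021). For both genes WT purified libraries were below WT mixed libraries, while DKO purified libraries were at or above DKO mixed libraries. The condensin subunit Ncapg2 read 345 and 359 in WT mixed, 4767 and 4772 in DKO mixed, 787 and 528 in WT purified and 2948 and 1917 in DKO purified and rose less in purified myotubes (-1.88 ± 0.35, adjusted p = 0.013); its call was lost without WT mixed replicate 1, WT mixed replicate 2, DKO mixed replicate 1, DKO mixed replicate 2 or WT purified replicate 1 (adjusted p up to 0.0716). The cell-cycle inhibitor locus Cdkn2a read 995 and 1095 in WT mixed, 1548 and 1494 in DKO mixed, 249 and 262 in WT purified and 3109 and 2811 in DKO purified. It rose by 0.54 ± 0.07 in mixed cultures and 3.53 ± 0.16 in purified myotubes, a difference of 2.98 ± 0.18, adjusted p = 0.00046. Apaf1, a p53 target of the cell-death machinery, rose in mixed cultures (1.70 ± 0.07) and was not called in purified myotubes (0.39 ± 0.17; difference -1.31 ± 0.18, adjusted p = 0.00505). In all, 2 of 35 p53 targets and inhibitors were called higher and 4 lower, near the 7.73% and 8.99% of all genes, and 1 to 10 higher and 2 to 14 lower without single libraries.

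E2F factors bind sites of the form TTTNNCGC, where RB represses them. On either strand these letters were in a window of 26 of the 57 genes for DNA replication that have one, against 5.9% of 27025 genes. The promoters printed, with these letters in capitals, belong to the 2 members with the smallest p for the difference among those that hold them.
E2f2 (chr4:136172024-136172323, plus strand): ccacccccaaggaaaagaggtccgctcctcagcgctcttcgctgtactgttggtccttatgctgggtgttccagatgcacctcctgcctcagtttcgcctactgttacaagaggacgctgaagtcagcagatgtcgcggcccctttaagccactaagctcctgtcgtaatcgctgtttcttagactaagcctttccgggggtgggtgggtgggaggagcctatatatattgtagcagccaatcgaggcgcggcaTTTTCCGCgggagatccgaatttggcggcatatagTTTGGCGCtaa
Cdc6 (chr11:98907901-98908200, plus strand): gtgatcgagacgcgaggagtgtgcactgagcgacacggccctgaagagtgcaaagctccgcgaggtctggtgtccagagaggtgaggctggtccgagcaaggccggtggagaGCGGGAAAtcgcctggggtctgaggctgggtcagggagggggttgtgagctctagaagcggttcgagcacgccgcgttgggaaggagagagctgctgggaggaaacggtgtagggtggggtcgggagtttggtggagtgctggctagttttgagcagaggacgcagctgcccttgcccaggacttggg
E2f2, itself an E2F factor, read 855 and 643 in WT mixed, 2198 and 2253 in DKO mixed, 558 and 463 in WT purified and 3219.9 and 5603 in DKO purified and rose further in purified myotubes (1.48 ± 0.38, adjusted p = 0.0369; lost without any 1 of the WT mixed, DKO mixed or WT purified libraries (adjusted p up to 0.14)). Cdc6, which loads the replicative helicase, read 4.79 and 2.13 in WT mixed, 287 and 296 in DKO mixed, 11.2 and 13.7 in WT purified and 268 and 194 in DKO purified and rose less there (-2.003 ± 0.53, adjusted p = 0.0418; lost without WT mixed replicate 2, DKO mixed replicate 1, DKO mixed replicate 2, WT purified replicate 1 or WT purified replicate 2 (adjusted p up to 0.168)). Both genes rose in both materials, and the printed letters do not separate them.

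Most interferon-stimulated genes, the antiviral programme of the cell, rose in mixed cultures. Of 43 genes, 37 rose and 3 fell in mixed cultures (median 2.49), against 12 and 7 in purified myotubes (median 0.95). For the difference, calls were lower for 15 (34.9%, against 8.99% of all genes) and higher for 1, H2-K1, an antigen-presenting molecule. Its median was -1.53, and single-library omissions gave 0 to 2 higher and 4 to 22 lower. The sensor of viral RNA Ifih1 (MDA5) read 321 and 241 in WT mixed, 492 and 471 in DKO mixed, 2026 and 1912 in WT purified and 60.2 and 49.2 in DKO purified. DKO was above WT in mixed cultures and below it in purified myotubes, without overlap in either, a difference of -5.94 ± 0.28, adjusted p = 0.000282. The related sensor Ddx58 (RIG-I) turned over the same way, from 0.77 ± 0.16 to -1.66 ± 0.29 (-2.43 ± 0.32, adjusted p = 0.00384). Ifit3, which binds foreign RNA, read 7.18 and 7.46 in WT mixed, 38.4 and 39.1 in DKO mixed, 11.2 and 9.94 in WT purified and 0 and 0 in DKO purified; these are low levels, and WT was at least 5.46-fold higher than DKO in purified myotubes (difference -5.78 ± 0.64, adjusted p = 0.00219). Ifi44, another interferon-induced gene, read 0 and 1.07 in WT mixed, 148 and 123 in DKO mixed, 1.86 and 2.48 in WT purified and 0 and 0 in DKO purified. DKO mixed libraries alone had more than 3 normalised reads (-8.22 ± 0.83, adjusted p = 0.00177). All cultures had received an adenovirus.

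Interferon-activated factors bind elements with 2 GAAA repeats. The letters searched were GAAA, then 2 bases of any kind, then GAAA, on either strand. They were in a window of 17 of the 35 interferon-stimulated genes that have one, against 4.0% of 27025 genes. They were in 0 of 24 muscle energy genes. The 2 members with the smallest p among those that hold them are printed with these letters, or their complement, in capitals.
Ifih1 (chr2:62646206-62646505, minus strand): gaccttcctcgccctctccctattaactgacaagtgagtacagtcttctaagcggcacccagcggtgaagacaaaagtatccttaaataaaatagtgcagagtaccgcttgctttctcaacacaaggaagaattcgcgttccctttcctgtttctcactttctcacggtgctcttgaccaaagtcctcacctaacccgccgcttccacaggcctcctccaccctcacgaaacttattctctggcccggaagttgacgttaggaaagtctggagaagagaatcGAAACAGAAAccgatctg
Ifit3 (chr19:34583279-34583578, plus strand): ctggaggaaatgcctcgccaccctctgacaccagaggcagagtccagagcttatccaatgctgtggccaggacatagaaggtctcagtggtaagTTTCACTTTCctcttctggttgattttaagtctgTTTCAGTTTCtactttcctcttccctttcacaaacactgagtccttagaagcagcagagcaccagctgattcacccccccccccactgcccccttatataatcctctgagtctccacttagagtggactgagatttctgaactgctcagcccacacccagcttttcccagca

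Replication-dependent histones, whose messengers end in a stem-loop instead of a poly(A) tail, were called lower in 10 of 33 genes and higher in 1. These are 30.3% and 3.03%, against 8.99% and 7.73% of all genes. In mixed cultures 30 rose (median 3.005); in purified myotubes 4 did (median 0.46). The linker histone gene Hist1h1b read 20.3 and 35.2 in WT mixed, 723 and 645 in DKO mixed, 9.3 and 12.4 in WT purified and 21.1 and 5.23 in DKO purified. Its purified libraries overlapped between genotypes at low levels (-4.62 ± 0.83, adjusted p = 0.0116; lost without WT mixed replicate 1, DKO mixed replicate 1, DKO mixed replicate 2 or WT purified replicate 2 (adjusted p up to 0.0716)). Single-library omissions gave 0 to 4 higher and 0 to 22 lower.

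Matrix genes were called lower more often than higher. Of 55 genes, 30 rose and 13 fell in mixed cultures, and 17 rose and 21 fell in purified myotubes. Shares called for the difference were 27.3% lower and 12.7% higher, against 8.99% and 7.73% of all genes. Between the materials, the effect was called lower for 15 and higher for 7 (median -0.74), and 1 to 13 higher and 8 to 28 lower without single libraries. Tenascin C, Tnc, a matrix protein of injured and developing tissue that shares exons with 8030451A03Rik, read 232 and 287 in WT mixed, 1212 and 1096 in DKO mixed, 8763 and 10013 in WT purified and 1085 and 1184 in DKO purified. WT purified libraries stood above every other group, and the DKO mixed and DKO purified libraries overlapped. The change was 2.16 ± 0.12 in mixed cultures and -3.05 ± 0.17 in purified myotubes (-5.20 ± 0.22, adjusted p = 0.000282). Ccn2 (connective tissue growth factor), which shares exons with Gm15270, read 525 and 572 in WT mixed, 971 and 869 in DKO mixed, 6815 and 9617 in WT purified and 390.3 and 613 in DKO purified, again highest in WT purified libraries (-4.79 ± 0.35, adjusted p = 0.000696). Collagen Col8a1 read 297 and 383 in WT mixed, 740.1 and 704 in DKO mixed, 662 and 728 in WT purified and 56.9 and 91 in DKO purified, with DKO purified libraries below all others (-4.35 ± 0.35, adjusted p = 0.00107). Fibrillin Fbn2 (shared with Gm26507) differed by -3.37 ± 0.22, adjusted p = 0.000612.

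Smooth muscle and myofibroblast genes were called lower in 7 of 21 and higher in 1, and 0 to 4 higher and 3 to 9 lower without single libraries. Tropomyosin Tpm4, of non-muscle filaments, shares exons with Gm26586 and read 597 and 689.7 in WT mixed, 1643 and 1598 in DKO mixed, 584 and 631 in WT purified and 481 and 499 in DKO purified. It rose in mixed cultures and the purified groups did not pass (-1.64 ± 0.20, adjusted p = 0.00265). Caldesmon Cald1, which binds actin and calmodulin, changed by 0.52 ± 0.05 in mixed cultures and by -1.25 ± 0.24 in purified myotubes (-1.77 ± 0.25, adjusted p = 0.00505). The sum of the 5 smooth muscle markers was 41128.4 and 41681.8 in WT mixed, 18739.5 and 19050.1 in DKO mixed, 112456.8 and 120590.2 in WT purified and 19331.0 and 30053.4 in DKO purified. It was highest in WT purified libraries. For the 21 genes of the list, 33.3% were called lower and 4.76% higher, against 8.99% and 7.73% of all genes.

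Imprinted genes, expressed from 1 parental copy and many of them active in fetal growth, were called lower in 8 of 17 (47.1%) and higher in 1, with a median of -0.72, and 0 to 5 higher and 2 to 11 lower without single libraries. Over all genes, 8.99% were called lower and 7.73% higher. The lower genes were Dlk1, Meg3, Peg3, Plagl1, Sgce, Zim1, Nnat and Usp29. Of the 9 calls in the list, 7 were lost in at least 1 omission. The call of Meg3 was lost without any 1 of the WT mixed, DKO mixed or WT purified libraries (adjusted p up to 0.0872) and that of Usp29 without DKO mixed replicate 1 (adjusted p = 0.0534). Zim1, a zinc-finger gene beside Peg3, read 535 and 775 in WT mixed, 608 and 586 in DKO mixed, 1879 and 1635 in WT purified and 279.7 and 313 in DKO purified. Its mixed groups overlapped and DKO purified libraries were lower than WT (-2.45 ± 0.28, adjusted p = 0.00239). Nnat, a membrane proteolipid that shares exons with Gm23134, read 39.5 and 61.8 in WT mixed, 129.9 and 120.5 in DKO mixed, 268 and 179 in WT purified and 32.5 and 55.5 in DKO purified, higher in DKO than in WT mixed cultures and lower in DKO than in WT purified myotubes (-3.66 ± 0.52, adjusted p = 0.00507).

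Among immediate early genes, which respond quickly to stress and growth signals, 6 of 31 were called higher and 1 lower, and 2 to 15 higher and 1 to 5 lower without single libraries. Jun, a subunit of the AP-1 factor that shares exons with Junos, read 2200.3 and 2264 in WT mixed, 1857 and 2128 in DKO mixed, 1552 and 1292 in WT purified and 3731 and 4632 in DKO purified, not called in mixed cultures and rising in purified myotubes (1.72 ± 0.23, adjusted p = 0.00373). The small GTPase Gem read 1353 and 990.3 in WT mixed, 986 and 1148 in DKO mixed, 153 and 129 in WT purified and 914 and 718 in DKO purified, low in WT purified libraries alone (2.64 ± 0.30, adjusted p = 0.00235). Lysosomal and autophagy genes were called higher in 8 of 34 and lower in 1, and 1 to 16 higher and 0 to 7 lower without single libraries. Map1lc3a, a coat protein of autophagosomes, read 1315 and 1095 in WT mixed, 926 and 793 in DKO mixed, 1060.5 and 1111 in WT purified and 2459 and 2497 in DKO purified and turned over between the materials (1.68 ± 0.20, adjusted p = 0.00303). Immediate early genes had 19.4% called higher and 3.23% lower, and lysosomal and autophagy genes 23.5% and 2.94%. All genes had 7.73% and 8.99%. Few calls fell among cytosolic ribosomal proteins, 2 of 74 higher and 0 lower, and proteasome subunits, 1 of 32 and 0. For these, single-library omissions gave 0 to 14 higher and 0 to 15 lower, and 0 to 16 higher and 0 to 12 lower.

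**Figure D4:**
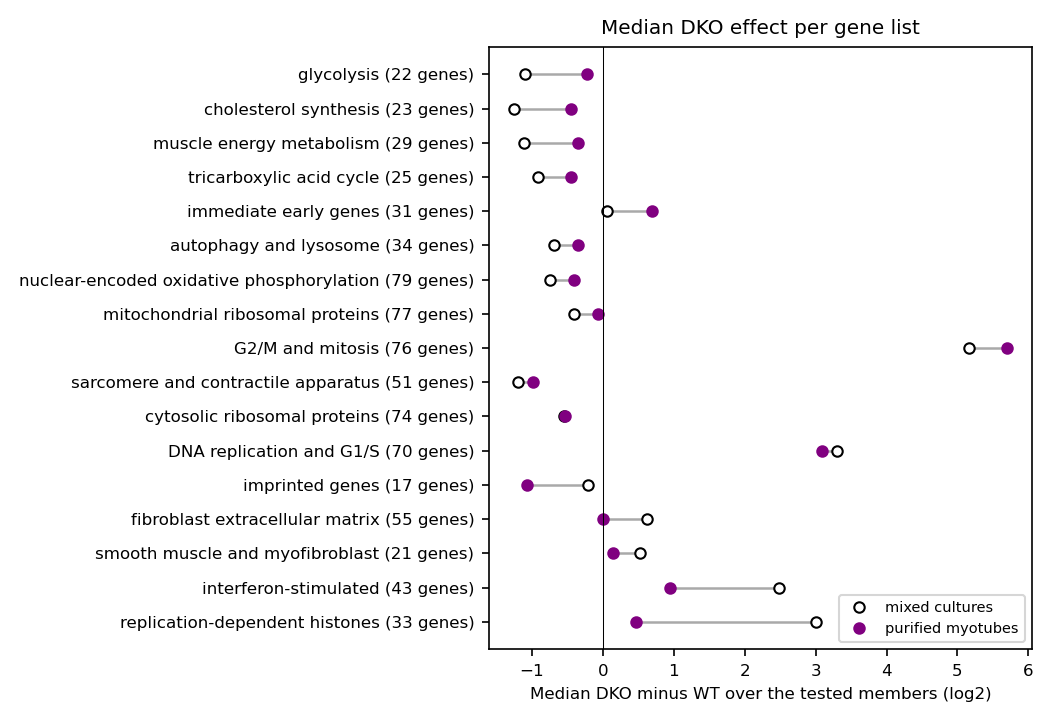
Median DKO minus WT (log2, horizontal axis) over the tested members of 17 gene lists, in mixed cultures (open circles) and purified myotubes (filled circles). Lists are in rough order of their median difference. Glycolysis moves from -1.09 to -0.22 and interferon-stimulated genes from 2.49 to 0.95, while the median of G2/M and mitosis stays above 5 in both.

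The largest higher differences belonged to genes of several tissues. Nrxn3, a synaptic adhesion protein that shares exons with Gm37980, read 1328 and 1040.4 in WT mixed, 1020.5 and 1392 in DKO mixed, 3.72 and 1.24 in WT purified and 384 and 412 in DKO purified. Mixed groups overlapped, WT purified libraries were near the floor, and DKO was 180.0-fold (95% exact counting interval 61.1 to 873) higher there (difference 6.92 ± 0.50, adjusted p = 0.000696). Map2, a microtubule protein of neurons that shares exons with Gm10558, read 2477 and 2023 in WT mixed, 7287 and 8051 in DKO mixed, 35.3 and 46 in WT purified and 3257 and 2620.3 in DKO purified, again with WT purified libraries far below the rest (4.37 ± 0.27, adjusted p = 0.00046). Ip6k3, an inositol phosphate kinase of muscle and brain, and Mab21l2, a developmental gene that shares exons with Lrba, differed by 6.31 and 5.33. Nfix, a factor of the fetal muscle programme that shares exons with G430095P16Rik and Lyl1, read 446 and 351 in WT mixed, 669.6 and 744 in DKO mixed, 87.4 and 107 in WT purified and 2804 and 10177 in DKO purified; its DKO purified libraries were far apart from each other but above all others (4.94 ± 0.72, adjusted p = 0.00587). The mast-cell protease gene Mcpt8 differed by 4.79. Deup1, of multiciliated cells, had 0 reads in WT purified myotubes, where DKO was at least 48.4-fold higher (difference 4.29). Hspb6, a small heat shock protein that shares exons with Gm38670, Lin37 and Proser3, differed by 4.67 and was lost without WT mixed replicate 1, WT mixed replicate 2, DKO mixed replicate 1, DKO mixed replicate 2 or WT purified replicate 1 (adjusted p up to 0.0553). The limb genes Tbx4, Evx2 and Hoxd13 were also among the 12 with the largest values. Evx2 read 208 and 159 in WT mixed and 2.63 and 1.975 in DKO mixed cultures. It read 5.58 and 0 in WT purified and 0 and 0 in DKO purified myotubes. Its change was -5.80 ± 0.36 in mixed cultures and -1.36 ± 0.99 in purified myotubes, so its positive difference is not a rise there.

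The largest lower differences were Ifi44, Trpm8, Fap, Pik3cg, Dcaf12l1, Hoxd3os1 (which shares exons with Hoxd3 and Hoxd4), Ifih1, Atp2b2, Vnn1, Hoxd8, Iigp1 and Tnfsf18, from -8.22 to -5.69. Trpm8, a cold-sensing channel that shares exons with 4930453O03Rik, read 9.57 and 17.1 in WT mixed, 11 and 15 in DKO mixed, 486 and 521 in WT purified and 3.25 and 1.05 in DKO purified. Only WT purified libraries had more than 20 normalised reads, and WT was 265.0-fold (95% exact counting interval 90.4 to 1290) above DKO there (-7.42 ± 0.68, adjusted p = 0.00148). The kinase subunit Pik3cg and the ectoenzyme Vnn1 were also highest in WT purified libraries, with Vnn1 at 41.9 and 28.8 in WT mixed, 71.5 and 47.8 in DKO mixed, 828 and 947 in WT purified and 34.2 and 16.7 in DKO purified (-7.05 ± 0.99, adjusted p = 0.005 and -5.88 ± 0.56, adjusted p = 0.00153). Dcaf12l1, on the X chromosome, had 0 reads in DKO purified myotubes, at least 98.7-fold lower than WT. Fap, a surface protease of activated fibroblasts, read 2.39 and 6.4 in WT mixed, 272 and 259 in DKO mixed, 9.3 and 28.6 in WT purified and 4.88 and 4.19 in DKO purified; here DKO mixed libraries alone were high (-7.39 ± 0.84, adjusted p = 0.00241). Iigp1 had reads in DKO mixed libraries and none in any purified library (-5.77 ± 1.35, adjusted p = 0.0278); its call was lost without DKO mixed replicate 1, DKO mixed replicate 2, WT purified replicate 1 or WT purified replicate 2 (adjusted p up to 0.128). The calls of Tnfsf18, a cytokine of the tumour necrosis factor family, and of the calcium pump Atp2b2 were lost without DKO mixed replicate 1, WT purified replicate 1 or WT purified replicate 2 (adjusted p up to 0.071) and without DKO mixed replicate 1 or WT purified replicate 1 (adjusted p up to 0.0585), in that order.

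Genes called in opposite directions in the 2 materials are described by the larger of them. Tbx4, a factor of hindlimb identity, read 214 and 258 in WT mixed, 38.9 and 38.3 in DKO mixed, 7.44 and 2.48 in WT purified and 26 and 40.8 in DKO purified. WT was above DKO in mixed cultures and below it in purified myotubes, without overlap (5.21 ± 0.66, adjusted p = 0.00337). The claudin Cldn15, of tight junctions, read 558 and 318 in WT mixed, 137 and 131 in DKO mixed, 22.3 and 26.1 in WT purified and 141 and 174 in DKO purified, with the same turnover (4.29 ± 0.42, adjusted p = 0.00168). Cmya5, a muscle protein of the costamere that shares exons with A630019I02Rik and Gm4814, did so too, from -1.57 ± 0.14 to 1.57 ± 0.28 (3.14 ± 0.33, adjusted p = 0.00192). Collagen Col23a1, the matrix protein Cilp2 and the lipid-transfer protein Stard10 went from -1.59 ± 0.13 to 2.14 ± 0.57, from -1.43 ± 0.24 to 2.17 ± 0.40 and from -1.41 ± 0.18 to 1.51 ± 0.28; Col23a1 was lost without DKO mixed replicate 1 (adjusted p = 0.0514). In the reverse direction, beside Tnc and Atp2b2, the kinase Camkk1, which activates other calmodulin-dependent kinases, read 49.1 and 46.9 in WT mixed, 187 and 196 in DKO mixed, 731 and 849 in WT purified and 169 and 142 in DKO purified (-4.31 ± 0.27, adjusted p = 0.000504). The actin-binding protein Rai14, which shares exons with Gm10389, the ribonuclease Rnase4, which shares exons with Ang, and the matrix protein Ecm2 differed by -3.92, -5.06 and -4.33. For Camkk1, as for Tnc, WT purified libraries were the highest of the 4 groups and WT mixed libraries the lowest.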

How the data were processed

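The authors deposited 1 signal value for each gene in each library, read counts scaled by size factors. The submitters' processing notes name TopHat 1.2.0 with the build mm9, and DESeq for the scaling; the read counter was not given in the sources used here. Each value was a whole number of reads within 0.01 (100% of values), and the recovered reads served the alternative count tests. No column was without a sample. Differences were fitted to log2(value + 1) with limma 3.58.1 (R 4.3.3), letting the variance follow intensity, for 17261 genes averaging 10 or more, with 8 libraries for the difference and 4 for each material, two-sided, Benjamini-Hochberg adjusted, threshold 0.05. The fits were tested on simulated data with 200 changed genes. For the difference, limma called 4% of 2-fold and 47% of 4-fold changes there, and 7 unchanged genes (0.041% of them). These 7 are to be read beside the calls among the 200 changed genes. Changed genes were drawn at higher expected DKO purified levels than the filter of 10 asks for. All genes of a group were given 1 common spread beyond counting error, so recovery at low levels was not tested. Folds against groups without reads use a floor of 3 reads over the group; counting intervals cover counting error only.

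Named genes were the targeted genes and muscle references, the 12 largest called differences each way and the 6 largest opposite calls each way (groups of differences not overlapping, highest group mean of at least 100, no clone names), and up to 4 members per list with the smallest p. A few genes that the rule selects are not reported here. Members and lists were chosen with earlier results of these data known, as were the promoter motifs. Symbols and shared exons came from GENCODE M21, a later assembly than mm9 (30983 of 36229 identifiers matched); genes that share exons are uncertain because the same reads may count for both, and reads were not separated by strand. Promoters are RefSeq windows of GRCm38.p6; 11627 of 16173 tested genes with a symbol matched. Alternatives were pseudocounts, filters, normalisations, edgeR 4.0.16, DESeq2 1.42.0, replicate blocks and leaving out each library.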

Additional observations from a re-analysis of the deposited data

Results flagged for a closer look

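The DKO effect differed between purified myotubes and mixed cultures by the test of the difference itself for 1335 genes higher and 1551 lower. Called in opposite directions in the 2 materials, and called for the difference, were 126 genes that rose and 169 that fell in purified myotubes. Among those named, the differences in the 2 effects (log2) were 5.21 for Tbx4, 4.29 for Cldn15, 3.73 for Col23a1, 3.60 for Cilp2, 3.14 for Cmya5 and 2.93 for Stard10. On the other side they were -5.89 for Atp2b2, -5.20 for Tnc, -5.06 for Rnase4, -4.33 for Ecm2, -4.31 for Camkk1 and -3.92 for Rai14.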

How the results depend on the processing

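For the difference (2886 genes), 15 of 17 settings that kept all 8 libraries gave counts within 1.5 times of it, from 2349 without an intensity trend to 4291 with all 12 libraries in the fit. The exceptions were 1855 genes without those that share exons, where fewer were tested, and 1774 with the replicate block within genotype. Similar counts did not mean the same genes. Of the 2886, between 59.9% (replicate block within genotype) and 98.6% (all 12 libraries) were called again. The share was 72.2% with the spread estimated per group and 74.0% without an intensity trend. With all 12 libraries, 66.3% of the genes called were among the 2886. Replicate numbers did not pair the samples (correlations of replicate differences between groups -0.041 to 0.034); with the replicate number as a block, 2411 passed. Opposite calls (295) became 132 with no filter on low values, 196 without genes that share exons and 93 at an absolute log2 change of at least 1. DKO against WT in mixed cultures (11634) became 7476 without genes that share exons and 6058 at that change, and in purified myotubes (6220) 4064 without genes that share exons and 4042 with no filter; beyond fewer genes tested and the stricter threshold, the cause was not tested.

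Leaving out single libraries gave 608 to 8957 genes for the difference, 7670 to 12921 in mixed cultures, 0 to 10599 in purified myotubes and 0 to 1136 opposite calls. Both values of 0 came without a WT purified library and the highest, other than that of mixed cultures, without DKO purified replicate 1. All genes shared with the 2886 kept their sign in each setting. This was close to fixed in advance, since such genes passed in both fits and the fits share libraries. The median of all genes moved from 0.00 to -0.10 in mixed cultures and from -0.03 to -0.15 in purified myotubes when libraries were centred on their medians, and to -0.15 and -0.12 with quantile normalisation, so falls within each material are relative to such a shift. Quantile normalisation turned the mixed change of Rb1 to 0.19 and of Myog to 0.337. Myod1 in purified myotubes ranged from -0.807 without DKO purified replicate 2 to 0.715 without replicate 1. Without genes that share exons the median difference of excitation-contraction coupling was -0.01. Between omissions of single DKO purified libraries, medians ran from -0.206 to 0.109 for DNA replication and G1/S, -0.189 to 0.147 for KDM5 enzymes, pocket proteins and E2F factors, and -0.149 to 0.293 for cytosolic ribosomal proteins; the cause was not tested.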

Other observations

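Hox genes, which mark position along the body and the limb, were looked at after Hoxd13, Hoxd8 and Tbx4 appeared among the largest differences, so their choice rests on values seen. Posterior members of the HoxD and HoxA clusters, 9 to 13, had reads in WT mixed cultures. Over 5 such HoxD genes, single libraries read 59.7 to 913 in WT mixed, 3.16 to 139 in DKO mixed, 0 to 18.6 in WT purified and 0 to 5.23 in DKO purified cultures. Over 4 such HoxA genes they read 85.3 to 960 in WT mixed, 5.26 to 46.3 in DKO mixed, 0 to 55.8 in WT purified and 0 to 3.25 in DKO purified cultures. Hoxd13 read 913 and 866 in WT mixed, 139 and 102 in DKO mixed, 0 and 1.24 in WT purified and 1.63 and 5.23 in DKO purified (difference 4.33 ± 0.77, adjusted p = 0.0112); the change was -2.89 ± 0.16 in mixed cultures and 1.43 ± 0.68 in purified myotubes, where all libraries were near 0. Its call was lost without WT mixed replicate 1, WT mixed replicate 2, DKO mixed replicate 1 or DKO mixed replicate 2 (adjusted p up to 0.0689). For Evx2, the neighbour of Hoxd13, the call was lost without WT mixed replicate 1, WT mixed replicate 2, DKO mixed replicate 1, DKO mixed replicate 2 or WT purified replicate 2 (adjusted p up to 0.154).

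Anterior HoxD genes kept reads in WT purified myotubes. Hoxd8 read 767 and 839 in WT mixed and 189 and 175 in DKO mixed cultures. It read 417 and 294 in WT purified and 0 and 1.05 in DKO purified myotubes (-5.80 ± 0.52, adjusted p = 0.0014). Hoxd3 shares exons with Gm28230, Haglr, Hoxd3os1 and Hoxd4, so it and Hoxd3os1 are not separate results. Hoxd3 read 377 and 388 in WT mixed and 97.8 and 96 in DKO mixed cultures. It read 340.5 and 319 in WT purified and 1.63 and 5.23 in DKO purified myotubes (-4.38 ± 0.55, adjusted p = 0.00322). The HoxB cluster showed another order: of 7 genes tested 6 were called lower and 0 higher, against 8.99% and 7.73% of all genes. Hoxb7 read 12 and 14.9 in WT mixed, 73.1 and 71.9 in DKO mixed, 50.2 and 43.5 in WT purified and 3.25 and 10.5 in DKO purified, rising in mixed cultures and falling in purified myotubes (-5.13 ± 0.70, adjusted p = 0.00448). Of 11 HoxA genes tested 1, Hoxa4, which shares exons with Gm29430, was called higher (2.15 ± 0.48, adjusted p = 0.0242) and 0 lower.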
